A study of Mus musculus with 4 samples.

Results

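The m6A peaks of the transcripts that encode the DNA methylation enzymes were examined in the spinal cord of mice with or without a peripheral nerve injury. The group holds 6 genes, chosen by name: *Tet1*, *Tet2*, *Tet3*, *Dnmt1*, *Dnmt3a* and *Dnmt3b*. Which of them had a peak was read from the peak calls of the authors, so the presence of a peak is a description and not a tested result. The 6 genes held 20 of the 33556 peaks called in the injured cord and 22 of the 34406 peaks called in the sham cord, and 2 of the 4812 peaks in the deposited table of differential peaks. Peaks were found for 5 of the 6 genes in either list and for 4 in both. *Tet1* had peaks in the sham list alone, and *Dnmt3b* had none in any table.

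DNA methyltransferases (Dnmt) place a methyl group on cytosine in DNA, mostly where a guanine follows. Dnmt1 copies the pattern onto the new strand when DNA is replicated, whereas Dnmt3a and Dnmt3b set methylation at sites that lacked it. Ten-eleven translocation (Tet) enzymes work in the other direction, since they oxidise the methyl group and so open the way to its removal. In the nervous system, both families are known for activity-dependent regulation of genes in neurons that no longer divide. The mark measured here, m6A, is a different one, a methyl group on adenosine within RNA. It influences how long a transcript lasts and how well it is translated, so the values below describe the messengers of these enzymes and not the DNA that the enzymes act on.

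The cords were taken on day 7 after surgery from mice of the C57BL/6J strain, 6 to 8 weeks old, with no transgene or drug named in the labels. In the chronic constriction injury (CCI) group, loose silk ligatures had been tied around the sciatic nerve, and the sham group went through the same operation with the nerve left untied. MeRIP-seq pulls down RNA fragments with an antibody against m6A (IP) and sets them against the fragments before capture (input). Each group had 1 IP and 1 input library, the number of mice behind a library is not given in the sources used here, and the labels name the tissue only as spinal cord. No p-value between CCI and sham was therefore computed, and a difference between the 2 lists cannot be set against the spread between animals.

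Marker genes were checked against the labelled tissue. All 25 markers of spinal neurons, astrocytes, oligodendrocytes, microglia and caudal Hox identity carried a peak in both lists, whereas *Acta1* and *Ckm* of skeletal muscle had none. Of the forebrain genes, *Emx1* had no peak and *Neurod6* had 2 in each list. *Hba-a1* and *Hbb-bs* of blood carried peaks in both lists, and of 3 sensory ganglion genes only *Scn10a* had any, 2 in sham. The tables give no read counts, so library depth is unknown. A peak needs enough RNA and enough m6A, so a transcript without a peak is not shown to be unmethylated or absent. In whole tissue, fewer cells of a type and less RNA per cell cannot be told apart either.

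The level given for each peak is its fold enrichment, the ratio of IP over input within the borders of the peak as the authors deposited it. A pair is a CCI peak and a sham peak that were each other's best overlapping partner, and there were 27380 such pairs in all and 15 among the 6 genes. Coordinates are those of the tables. The processing notes name the GRCm38 genome, and distances to the end of a gene use the RefSeq genes of GRCm38.p6. Of the 42 peaks of the group, 3 shared bases with another RefSeq gene, in every case the long noncoding RNA gene *Dnmt3aos*, which lies at 3859293 to 3862244 on chromosome 12 over part of *Dnmt3a*. The libraries were strand-specific (dUTP method), but whether peaks were called by strand is not stated, so it is not known whether reads of these 2 genes were kept apart there.

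**Figure D1:**
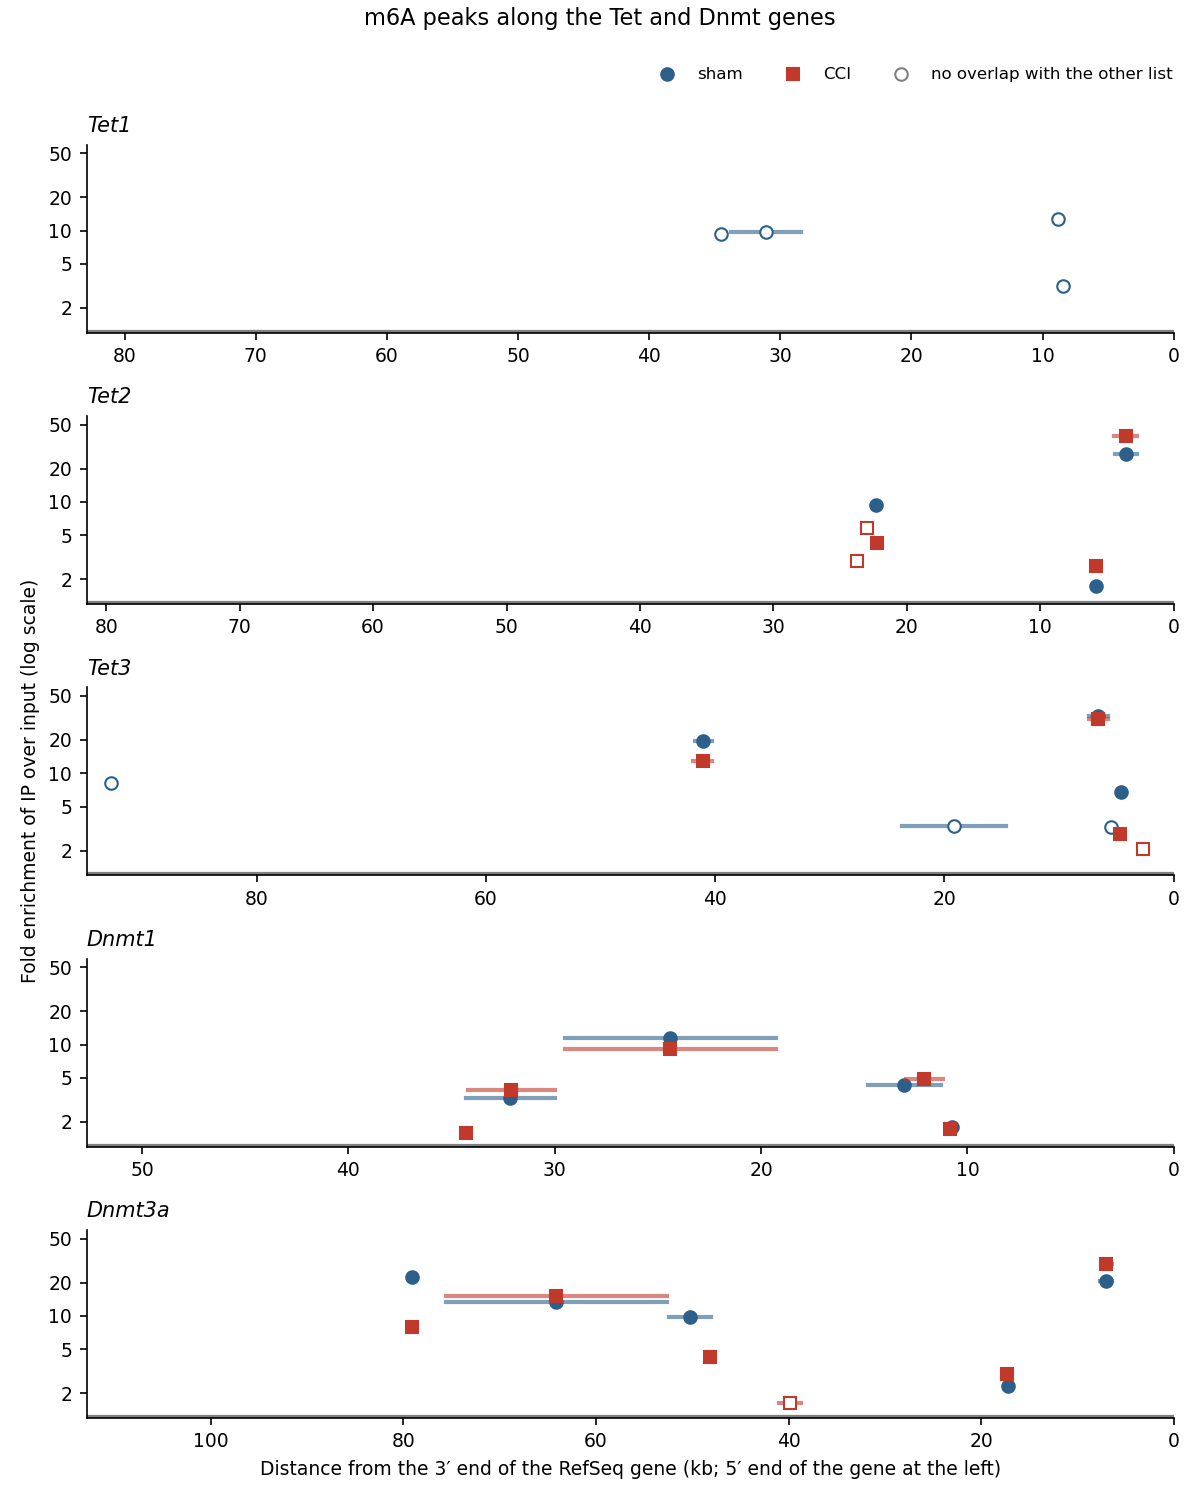
Fold enrichment of IP over input (log scale) of every CCI (red squares) and sham (blue circles) peak of the 5 genes with a peak, against the distance in kb from the 3′ end of the RefSeq gene, with the 5′ end at the left. Horizontal bars span a peak including its introns, open symbols have no overlap with the other list, and *Tet1* shows 4 open sham circles and no CCI square.

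*Tet1*, the founding member of the Tet family, differed most between the lists, with 4 sham peaks and 0 CCI peaks. All 4 lay on chromosome 10 on the minus strand, within the RefSeq gene at 62804570 to 62887469 (ENSMUSG00000047146), and no CCI peak of any gene name overlapped them. The peak from 62838920 to 62839160 (241 bp, exon 3 of 11) had a fold enrichment of 9.30 in sham. The neighbouring peak from 62832955 to 62838321, which joined 270 bp over 3 exonic blocks, had 9.68. Nearer the 3′ end, a peak of 91 bp from 62813315 to 62813405 had 12.8, and one of 120 bp from 62812926 to 62813045 had 3.17. The authors annotated the first of these in the 3′-UTR and the second in exon 11 of 11, although the second lies further downstream.

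The 4 *Tet1* peaks were weakly supported in sham. Their log10 p-values of IP against input ran from -7.21 to -3.11, and 28.8% of all sham peaks had a p-value as weak as or weaker than the best of them. Of all 34406 sham peaks, 16.1% had no CCI partner, but among the 8082 sham peaks with a p-value in the range of the *Tet1* peaks the share was 42.6%. A gene of the sham list lacked any CCI peak in 8.88% of 12907 cases. With 4 or more sham peaks this was rare, in 6 of 3090 genes (0.194%), the other 5 being *Abcb6*, *Adamtsl2*, *Celf6*, *Exoc3l4* and the predicted gene *Gm19026*, which were named after their values were seen. Where, as in *Tet1*, the best of the 4 or more sham peaks had a log10 p-value no stronger than -7.21, it held for 5 of 47 genes (10.6%). These included *Tet1* itself, whose own value set that limit. The others had weaker best log10 p-values, from -4.7 (*Gm19026*) to -3.4 (*Adamtsl2*). The limit of 4 sham peaks was also set by *Tet1*, and only 47 of the 3090 genes had a best p-value no stronger than its own. The 0.194% therefore does not measure how unusual *Tet1* is. The 10.6% does not show how often this holds for genes with peaks as strong as those of *Tet1*. The input level of *Tet1* in either group cannot be read from the tables, so a lower amount of *Tet1* RNA and a lower m6A level cannot be told apart. *Tet1* had no row in the deposited table of differential peaks.

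*Tet2*, the Tet enzyme known best from blood cells and also expressed in brain, had 5 CCI peaks and 3 sham peaks (ENSMUSG00000040943, chromosome 3, minus strand). Its main site was a broad peak in the 3′-UTR, from 133466406 to 133468113 in CCI (1708 bp) and from 133466436 to 133468084 in sham (1649 bp). The fold enrichment there was 39.5 in CCI and 27.4 in sham, 1.44-fold higher in CCI. It was the highest value of the whole group in CCI, and only 5.13% of all CCI peaks lay above it. The sham value was exceeded by 8.03% of the sham peaks. A weak peak in exon 10 of 11 had 2.65 in CCI over 181 bp and 1.74 in sham over 61 bp.

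Exon 3, the long exon of *Tet2* that holds much of its coding sequence, went the other way. Here the sham list had 1 peak of 241 bp (133485828 to 133486068) with a fold enrichment of 9.30, and the CCI peak inside it (133485858 to 133486008, 151 bp) had 4.24, which is 2.19-fold lower. Farther upstream in the same exon, CCI alone had a peak of 181 bp with a fold enrichment of 5.86 (133486607 to 133486787) and one of 121 bp with 2.90 (133487356 to 133487476). The *Tet2* transcript thus had a higher value in CCI at its 3′ end and a lower one at the shared exon 3 site, with more calls in exon 3 in CCI.

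*Tet3*, the Tet enzyme known for its expression in neurons, had 4 CCI peaks and 6 sham peaks (ENSMUSG00000034832, chromosome 6, minus strand). Its strongest site lay in the last exon, from 83368098 to 83369806 in CCI and from 83368068 to 83369806 in sham. The fold enrichment was 31.0 in CCI and 32.6 in sham, the smallest difference among the strong peaks of the group. This is also the *Tet3* peak in the deposited table of differential peaks, where it was listed from 83368068 to 83370393 with a fold enrichment of 32.1 over 1769 bp. The second site lay in exon 3 of 11, with peaks of 1529 bp in either list and nearly the same borders. It had a fold enrichment of 12.8 in CCI and 19.5 in sham, 1.52-fold lower in CCI.

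In the 3′-UTR of *Tet3*, downstream of the last-exon peak, the shared peak covered 120 bp (CCI) or 240 bp (sham). Its fold enrichment was 2.84 in CCI and 6.78 in sham, 2.39-fold lower in CCI. A sham peak of 151 bp between these sites (83367768 to 83367918, fold enrichment 3.24) had no CCI partner, and a CCI peak of 90 bp nearer the transcript end (83364981 to 83365070, 2.06) had none in sham. Sham alone also had a peak of 3 blocks annotated in exon 4 (83376959 to 83386025, 3.35) and a 5′-UTR peak of 120 bp (83455063 to 83455182, 8.13), which lies 92.7 kb upstream of the 3′ end of the gene. All 3 *Tet3* pairs had a lower value in CCI, with log2 ratios of CCI to sham of -0.07, -0.61 and -1.26.

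*Dnmt1*, the maintenance methyltransferase, had 5 CCI peaks and 4 sham peaks (ENSMUSG00000004099, chromosome 9, minus strand), and differed least. Its main peak had the same borders in both lists, from 20926542 to 20936721, and joined 630 bp over 9 exonic blocks, annotated by the authors in exon 8 of 39, where its most upstream block lies. The fold enrichment was 9.07 in CCI and 11.4 in sham, a log2 ratio of -0.33. Downstream of it, a site annotated in exon 22 in CCI and exon 21 in sham had 4.90 and 4.33, each over 301 bp. The farthest downstream site, annotated in exon 25 in CCI and exon 26 in sham, had 1.74 in CCI and 1.80 in sham. No peak of *Dnmt1* was called in the last 10.7 kb before the 3′ end of the RefSeq gene, or annotated in the 3′-UTR.

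Upstream of the main peak, sham had 1 *Dnmt1* peak of 271 bp reaching into the 5′-UTR, with a fold enrichment of 3.26. CCI had the same start but 2 calls in its place, one of 181 bp with 3.85 (20937171 to 20941375) and one of 61 bp with 1.59 (20941465 to 20941525). The latter shared 1 base with the sham peak and was the lowest value of the group. All 4 *Dnmt1* pairs lay within 0.33 of equal values on the log2 scale, 2 of them higher and 2 lower in CCI.

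*Dnmt3a*, the de novo methyltransferase that is prominent in mature neurons, had 6 CCI peaks and 5 sham peaks (ENSMUSG00000020661, chromosome 12, plus strand). Of the members it held the largest difference in a shared peak. In the 5′-UTR at 3835110 to 3835410 in sham (301 bp) and 3835170 to 3835410 in CCI (241 bp), the fold enrichment was 22.7 in sham and 7.91 in CCI, 2.87-fold lower in CCI. Of all pairs, 2.79% had a log2 ratio as low as or lower than its value of -1.52. This sham value was the highest of any *Dnmt3a* peak in sham. The next site downstream, of 4 blocks and annotated in the 5′-UTR, had 15.1 in CCI and 13.4 in sham, and 119 of its 241 bp in CCI lay over *Dnmt3aos*.

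A further *Dnmt3a* site had a lower value in CCI. The sham peak from 3862078 to 3866383 (421 bp, 2 blocks) had a fold enrichment of 9.86, and the CCI peak inside it, from 3866113 to 3866323 (211 bp), had 4.27, which is 2.31-fold lower. It overlaps the *Dnmt3a* row of the deposited table of differential peaks, which runs from 3862078 to 3866353 with a fold enrichment of 6.13. The authors annotated the sham peak in the 5′-UTR and the CCI peak in exon 4 of 4 of a short transcript. Of the sham peak, 22 bp lay over *Dnmt3aos*.

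Towards the 3′ end of *Dnmt3a* the order turned. The peak that ends at 3907996, 6.45 kb upstream of the end of the RefSeq gene and annotated in the 3′-UTR, had a fold enrichment of 29.2 in CCI and 20.9 in sham, 1.40-fold higher in CCI. A weaker site 17 kb from the end had 2.96 in CCI and 2.34 in sham. CCI alone had a peak of 91 bp with 1.65 (3873396 to 3875719). The authors annotated both of these in the 3′-UTR, although the RefSeq gene runs on for many kb beyond them.

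*Dnmt3b*, the close relative of *Dnmt3a* that is known for its role in early development, had no row in the 3 tables. Its RefSeq gene lies at 153649411 to 153687730 on chromosome 2. None of the 10 RefSeq promoter windows of 300 bp of the 6 genes, which span the transcription start, held a peak in either list.

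**Figure D2:**
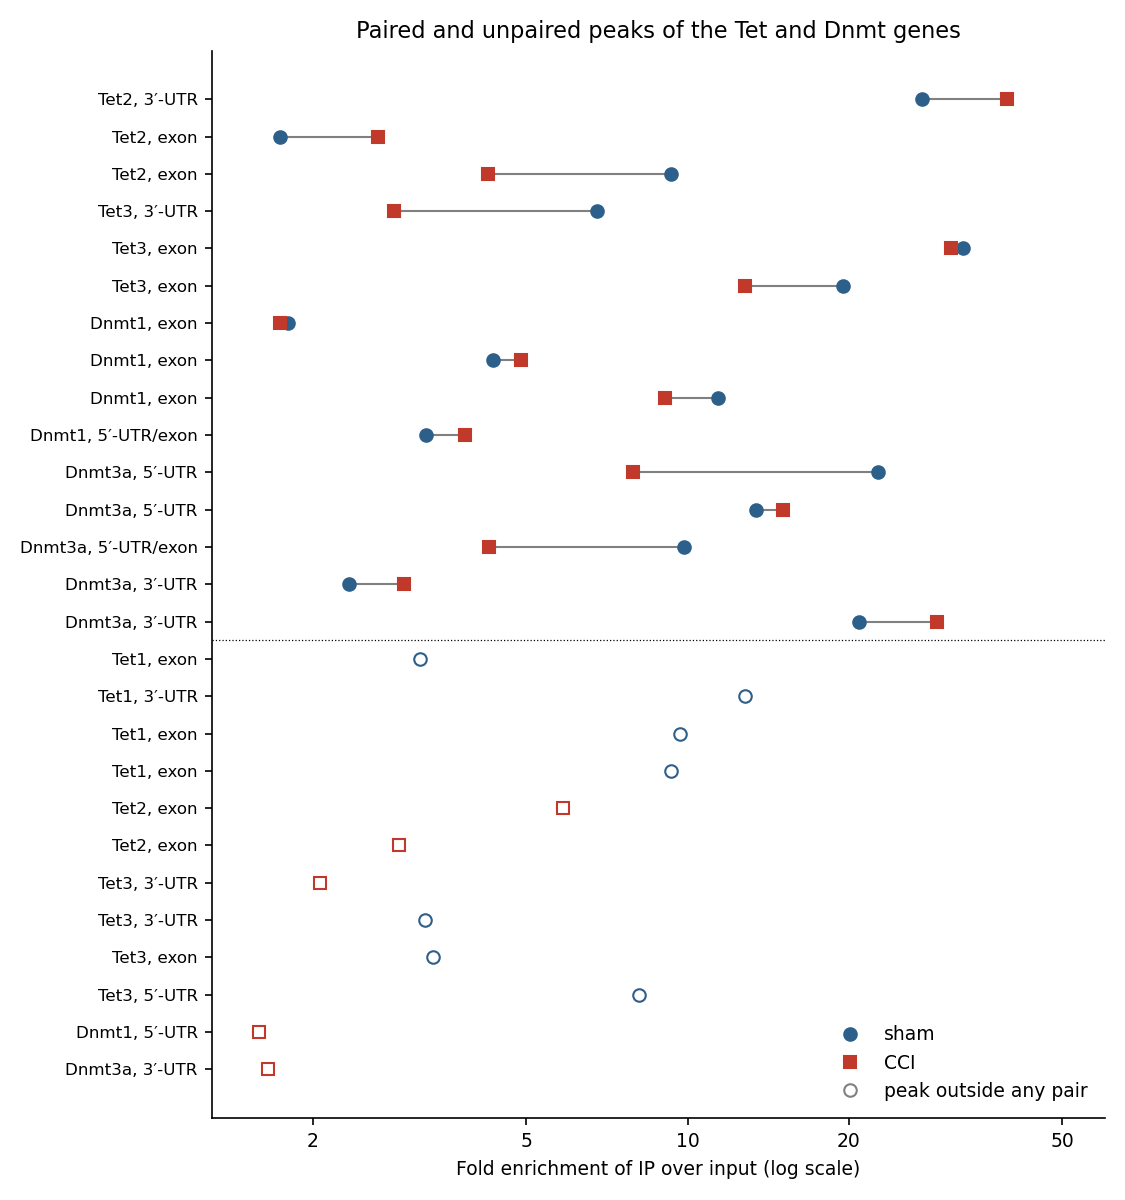
Fold enrichment of IP over input (log scale) of the 15 pairs (joined filled symbols) and, under the dotted line, of the 12 peaks outside any pair, with sham as blue circles and CCI as red squares. A region named as sham/CCI was annotated differently in the 2 lists, and the widest gap is at a *Dnmt3a* 5′-UTR pair (22.7 in sham, 7.91 in CCI).

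Over the group, 4 of the 15 pairs had a fold enrichment at least 2-fold lower in CCI, against 7.25% of all pairs, and 0 were at least 2-fold higher, against 8.59%. The 4 pairs included the 5′-UTR site of *Dnmt3a* (log2 ratio of -1.52). Its site annotated in the 5′-UTR in sham and in exon 4 in CCI had -1.21. The others were the 3′-UTR pair of *Tet3* (-1.26) and the exon 3 pair of *Tet2* (-1.13). In each of the 4 the CCI peak was the shorter one and lay within the sham peak, so the ratios compare unequal stretches of RNA. The pairs went both ways. Their median log2 ratio was -0.05 with 8 pairs lower and 7 higher, and the median of all pairs was 0.03. The 6 Tet pairs had a median of -0.34 and the 9 Dnmt pairs one of 0.17, and this difference was not tested. The Tet median pools 2 genes that went opposite ways, with medians of 0.53 over 3 *Tet2* pairs and -0.61 over 3 *Tet3* pairs. It therefore does not describe the family, and *Tet1* had no pair.

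**Figure D3:**
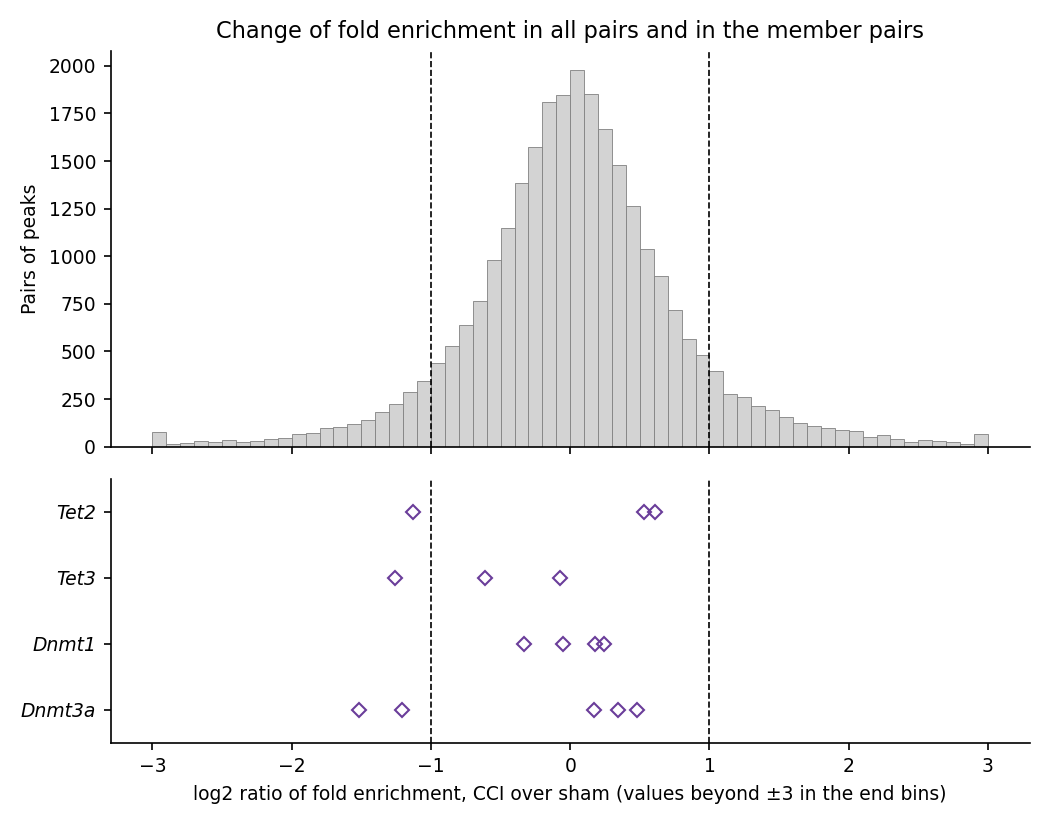
Upper panel, number of pairs of peaks by log2 ratio of fold enrichment (CCI over sham) for all 27380 pairs, with values beyond the axis placed in the end bins. Lower panel, the 15 pairs of *Tet2*, *Tet3*, *Dnmt1* and *Dnmt3a* on the same axis, with dashed lines at a 2-fold difference, past which 4 pairs lie on the lower side and 0 on the higher side.

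The pair with the highest CCI value of each gene differed less. It was 1.44-fold higher in CCI for *Tet2*, 1.40-fold higher for *Dnmt3a* and 1.05-fold and 1.26-fold lower for *Tet3* and *Dnmt1*. The 4 pairs at least 2-fold lower had sham fold enrichments of 6.78 to 22.7. By region of the sham peak, the median log2 ratio was -0.52 over 4 pairs in the 5′-UTR, -0.07 over 7 in exons and 0.41 over 4 in the 3′-UTR. The 5′-UTR pairs include those of *Dnmt3a* at -1.21 and *Dnmt1* at 0.24, whose CCI peaks were annotated in an exon. The medians of all pairs ran in the same order but over a narrower range, at -0.10, 0.02 and 0.06.

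Of the CCI peaks of the group, 16 of 20 overlapped a sham peak (80%, 95% Wilson interval 58.4 to 91.9%, counting error only), and 4 (*Tet2* 2, *Tet3* 1, *Dnmt3a* 1) did not, against 12.3% of all CCI peaks without a partner. Of its sham peaks, 15 of 22 overlapped a CCI peak (68.2%, 47.3 to 83.6%), and the 7 that did not were the 4 of *Tet1* and 3 of *Tet3*, against 16.1% of all sham peaks without a partner and 42.6% of those in the p-value range of the *Tet1* peaks. All 11 peaks found in 1 list alone covered 270 bp or less. Those of CCI had fold enrichments of 1.65 to 5.86 and log10 p-values of -4.85 to -2.62, and 39.8% of all CCI peaks in that range of p lacked a sham partner. Those of sham had fold enrichments of 3.17 to 12.8. Both broad sites of *Tet3* and the 3′-UTR site of *Tet2*, each at least 1529 bp long, were in both lists.

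Within each list, the group had a median fold enrichment of 4.25 over 20 peaks in CCI and 9.30 over 22 peaks in sham, while that of all peaks was 5.72 and 5.70. Among the peaks called in 1 list alone it was 2.48 over 4 CCI peaks and 8.13 over 7 sham peaks, and among those that overlapped the other list 4.58 and 9.86. Medians of so few peaks, at partly different sites, do not measure a change at a shared site. Over the 15 pairs, the median log2 ratio was -0.05, with 8 pairs lower and 7 higher in CCI. The weakest peaks of the group that were still called had a log10 false discovery rate of -1.90 in CCI (*Dnmt1* and *Dnmt3a*) and -2.24 in sham (*Tet2*), and the weakest of all peaks had -1.32. Regions below that limit are not listed in the tables.

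Exons held the largest number of the enzymes' peaks in both lists. In sham, 11 of 22 were annotated in an exon (50.0%, 95% Wilson interval 30.7 to 69.3%), 6 in the 3′-UTR (27.3%, 13.2 to 48.2%) and 5 in the 5′-UTR. In CCI, 11 of 20 were in an exon (55.0%, 34.2 to 74.2%), 6 in the 3′-UTR (30.0%, 14.5 to 51.9%) and 3 in the 5′-UTR. Over all peaks, exons held 35.1% in sham and 35.5% in CCI, and the 3′-UTR held 48.9% in sham and 49.8% in CCI. The intervals treat peaks of the same gene as independent. With only peaks of a fold enrichment of at least 2, the share of the group in the 3′-UTR was 30% in sham and 29.4% in CCI, and with each gene and region counted once it was 36.4% and 33.3%. Each gene carried more peaks than the median of 2 per gene, apart from *Tet1* in CCI and *Dnmt3b*. At least as many peaks as *Dnmt3a* has in CCI were found in 8.92% of the genes of that list, and at least as many as *Tet3* has in sham in 8.38%.

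The deposited table of differential peaks held *Tet3* and *Dnmt3a*, with 1 row each, among the 5 genes of the group with a peak. Of all 13554 genes with a peak in either list, 25.3% had such a row, and 2 of the 15 pairs overlapped one, against 15.8% of all pairs. The *Tet3* row fell on the last-exon peak, whose fold enrichments in the lists hardly differed (31.0 and 32.6). The *Dnmt3a* row fell on a site that was 2.31-fold lower in CCI. The other 3 pairs at least 2-fold lower in CCI, at the 5′-UTR of *Dnmt3a*, the 3′-UTR of *Tet3* and exon 3 of *Tet2*, had no row.

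Other genes of DNA methylation were taken from a list of 49 genes in 5 roles. Of these, 37 had peaks in both lists, 1 in CCI alone, 3 in sham alone and 8 in neither. Of all genes of the sham list, 8.88% had no CCI peak. Among the 98 pairs of the wider list, 6 were at least 2-fold lower in CCI, against 7.25% of all pairs. Another 6 were at least 2-fold higher, against 8.59%, and the median log2 ratio was -0.07. Of the 49 genes, 11 had a row in the table of differential peaks, against 25.3% of all genes with a peak in either list. By these shares, the wider list does not stand out from all genes. The all-or-none pattern of *Tet1* was shared by *Dmap1* (2 sham peaks), *Ahcy* (1) and *Mtr* (1), which had fewer peaks, and *Uhrf2* had 1 peak in CCI alone. *Uhrf1*, which guides Dnmt1 to newly copied DNA, had no peak, like *Dnmt3l*, *Hells* and *Dppa3*.

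Readers of methylated DNA all carried peaks in both lists. A 5′-UTR pair of *Mbd1*, which binds methylated DNA, had a fold enrichment of 3.69 in CCI and 7.55 in sham. *Mbd3* and *Zbtb4* had rows in the table of differential peaks. Both pairs of *Mbd3* were lower in CCI, with 58.4 against 103 in the 5′-UTR and 5.41 against 8.72 in the 3′-UTR. The *Zbtb4* pairs with a row, all in the 3′-UTR, went both ways. They had 53.4, 13.6 and 3.31 in CCI against 32, 16.6 and 1.98 in sham. Over the 41 pairs of the readers the median log2 ratio was -0.09, with 1 pair at least 2-fold lower in CCI and 1 at least 2-fold higher.

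Among the partners of active demethylation, *Gadd45b*, an activity-induced gene, had 1 peak per list, in the 3′-UTR, with a fold enrichment of 42.2 in CCI and 9.65 in sham. A 5′-UTR pair of *Gadd45a* had 34.9 in CCI and 16.3 in sham. *Gadd45g* had 290 and 274, with a row in the table of differential peaks, as did *Tdg*, which removes the bases that Tet enzymes oxidise (1.62 in CCI, 2.48 in sham), *Parp1* and *Ogt*. A 3′-UTR pair of *Lig3* had 3.79 in CCI and 10.4 in sham. Among proteins with a CXXC domain and regulators of Tet enzymes, *Cxxc1* had a pair at 18.2 in CCI and 4.16 in sham, *Cxxc4* one at 27.6 and 56.4, and *Kdm2b* one at 6.44 and 20.9. *Kdm2b* and *Cxxc5* had rows in the table of differential peaks.

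Genes of cofactor supply, which include those of the methyl donor and also *Idh1*, *Idh2* and *Idh3a*, leaned lower. Over 11 pairs the median log2 ratio was -0.54, with 2 pairs at least 2-fold lower in CCI. The 1 pair at least 2-fold higher was that of *Ahcyl2*, with a fold enrichment of 41.7 in CCI and 5.04 in sham. *Mtr* had a row in the table of differential peaks. In the first of the 5 roles, *Trim28*, a corepressor that recruits silencing complexes, had a 3′-UTR pair at 15.4 in CCI and 4.87 in sham.

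**Figure D4:**
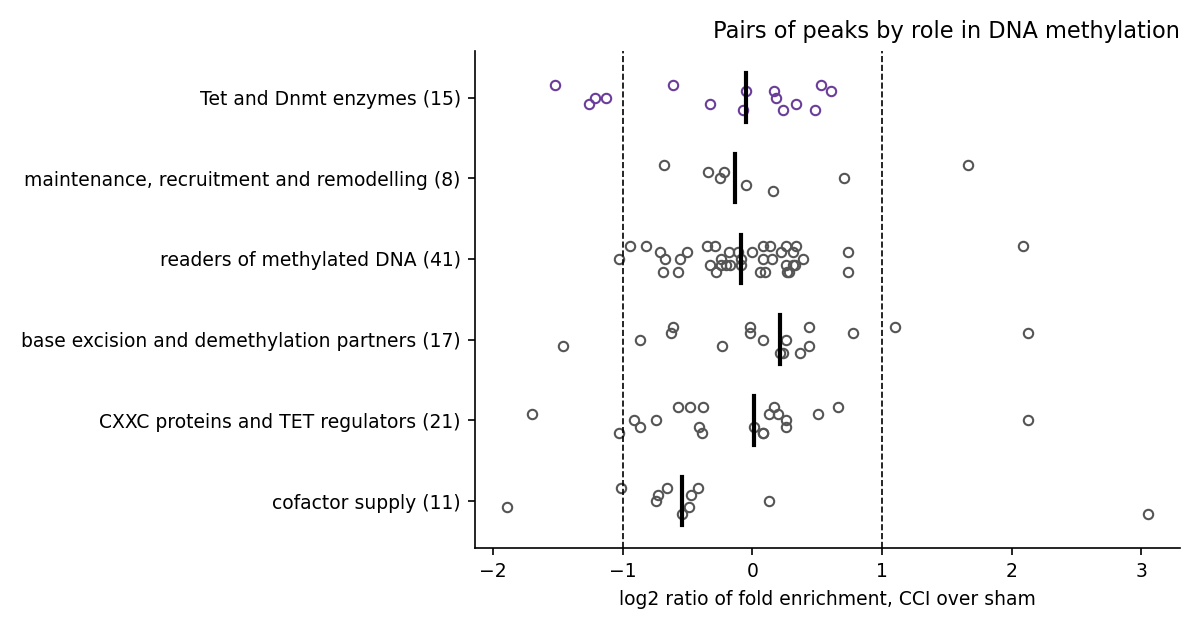
log2 ratio of fold enrichment (CCI over sham) of each pair of peaks, for the 15 pairs of the Tet and Dnmt enzymes and the 98 pairs of the wider list by role, with the number of pairs in brackets, a bar at the median and dashed lines at a 2-fold difference. The enzymes have 4 pairs past the lower line and 0 past the upper, while the wider list has 6 past either.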

How the data were processed

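In the study's methods, Cutadapt trimmed the reads, bowtie aligned them, MACS2 called the peaks and ChIPseeker assigned genes and regions. The labels' processing notes name fastp, HISAT2, HOMER, ChIPseeker and GRCm38, and the columns carry exomePeak names. The libraries kept strand, but its use in calling is not stated. The fold enrichment of each peak is a ratio of IP over input deposited by the authors. For IP against input, the authors' tables also give a p-value and a false discovery rate on a log10 scale, each treated as a score. The differential table also holds the authors' fold changes and p-values of CCI against sham, which were not used.

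Overlap meant at least 1 shared exonic bp, and pairs were mutual best partners by shared bases over the bases of either peak. The log2 ratio of fold enrichment was called at an absolute value of 1 or more. Different inputs and borders limit this ratio. All 6 members were named with every peak, and other genes of the list where they had a differential row or a called pair, except some that are not reported here. *Dcaf1* and *Vprbp* are 1 gene and were counted under the latter. The members and lists were chosen with earlier results of these data known. The pairing step was tested on simulated data with widely spaced sites, so its choice among several overlapping partners was not tested. No motif was searched, since no genome sequence was used here. Python 3.11.15, numpy 2.4.6, pandas 2.3.3 and matplotlib 3.10.9 were used.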

Additional observations from a re-analysis of the deposited data

How the results depend on the processing

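No paired analysis was possible because neither group has a second IP library, and for the same reason none could be left out. The planned motif search was not run, since no genome sequence was used here. Of 41 recomputed values, 38 moved by less than the Wilson interval of a share, a factor of 1.5 for a count or 0.1 for a log2 ratio, and 3 moved by more. With fold enrichments replaced by their ranks within each list, the log2 ratio of ranks was 0.68 for the strongest pair of *Tet2*. It was 0.69 for that of *Dnmt3a*. The log2 ratios of fold enrichment were 0.53 and 0.48, so both pairs were still higher in CCI. A ratio of ranks is on another scale, so only the direction can be compared. The median over the member pairs was 0.01 by ranks and -0.05 by fold enrichment. At an absolute log2 ratio of 0.5, 2 pairs were higher in CCI in place of 0, against 22.1% of all pairs, and 5 were lower in place of 4, against 19.4%. The wide counting intervals of so few peaks make the other shares weak evidence of stability. Counts of reads were not used here, so depth sets no stated limit on a single fold enrichment.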
